A study of Homo sapiens with 12 samples.

Results

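The 43 genes described here encode the nuclear pore and the machinery that carries proteins and RNA through it. They were taken from a fixed list of symbols, and all 43 were found among the 61906 genes of each deposited count table. They comprise 29 pore subunits, 10 import and export receptors and 4 genes of the Ran system. RNA was measured by bulk RNA-seq in MOLM-14, an established human acute myeloid leukemia cell line known to carry a rearrangement of KMT2A and an internal tandem duplication of FLT3. In the knockdown experiment, cells had been infected with a lentivirus for an shRNA against the RNA helicase DDX5 (shDDX5) or for a control shRNA (shControl), and were collected after 96 hours. In the compound experiment, cells had been kept for 6 hours in 100 nM of the compound RX-5902, which is known as a ligand of phosphorylated DDX5, or in its vehicle (0.1% DMSO). Each of the 4 groups held 3 libraries, which the labels call biological replicates. Both experiments used 1 cell line, and the knockdown used 1 shRNA against DDX5 with no rescue.

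The nuclear pore complex is a ring of many copies of the nucleoporins that spans the nuclear envelope. Its Y complexes and inner ring form the scaffold, membrane nucleoporins anchor it, and phenylalanine-glycine repeats of the channel, the cytoplasmic filaments and the nuclear basket bind transport receptors. Import and export receptors carry cargo through the channel, and the direction is set by the small GTPase RAN, which is loaded with GTP by RCC1 in the nucleus and triggered to hydrolyse it by RANGAP1 and RANBP1 in the cytoplasm. In acute myeloid leukemia the machinery is known for fusion genes of NUP98 and NUP214 and for XPO1 as a drug target.

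Promoter windows are shown for members with large called falls, picked only among members whose window matched any of the 5 motifs named below. That each printed window holds a match is therefore no result. NUP88, NUP35 and IPO4 fell most in shDDX5 cells, and NUP210 and SEH1L, chosen after their values were seen, were among those that fell most with RX-5902. XPO5, at a log2 fold change of -0.93 with RX-5902 like SEH1L, held no match and was passed over. Each window runs from 250 bases before to 50 after the gene's start in RefSeq on GRCh38.p14, written 5′ to 3′ on the gene's strand. They lie at chr17:5419613-5419912 (minus strand), chr2:183124193-183124492 (plus strand), chr14:24188767-24189066 (minus strand), chr3:13420273-13420572 (minus strand) and chr18:12947761-12948060 (plus strand). Capitals mark matches, on either strand, to 5 short motifs: CACGTG (an E-box), TTTGAA (the core of the element of cell cycle genes), GCGGGAA (an E2F-type sequence), CCAAT and CCGGAAG (an ETS-type sequence). On the printed strand a reverse match to CCAAT reads ATTGG, one to CCGGAAG reads CTTCCGG, and one to GCGGGAA reads TTCCCGC.
NUP88: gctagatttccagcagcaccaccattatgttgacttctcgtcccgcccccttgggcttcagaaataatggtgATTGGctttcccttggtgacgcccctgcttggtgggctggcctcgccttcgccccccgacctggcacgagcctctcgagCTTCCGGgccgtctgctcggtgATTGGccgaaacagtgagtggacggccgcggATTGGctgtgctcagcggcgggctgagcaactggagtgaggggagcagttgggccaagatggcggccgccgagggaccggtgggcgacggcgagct
NUP35: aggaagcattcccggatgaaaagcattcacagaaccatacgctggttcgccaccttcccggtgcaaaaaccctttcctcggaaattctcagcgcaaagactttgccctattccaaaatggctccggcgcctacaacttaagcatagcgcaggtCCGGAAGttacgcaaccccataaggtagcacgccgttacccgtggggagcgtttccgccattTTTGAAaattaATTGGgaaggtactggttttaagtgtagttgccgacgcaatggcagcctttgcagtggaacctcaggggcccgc
IPO4: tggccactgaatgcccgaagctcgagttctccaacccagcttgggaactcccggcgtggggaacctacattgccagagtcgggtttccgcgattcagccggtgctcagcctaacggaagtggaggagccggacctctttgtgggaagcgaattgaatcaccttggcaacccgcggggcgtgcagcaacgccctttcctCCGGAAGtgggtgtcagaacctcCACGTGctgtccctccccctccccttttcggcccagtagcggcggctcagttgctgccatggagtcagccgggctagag
NUP210: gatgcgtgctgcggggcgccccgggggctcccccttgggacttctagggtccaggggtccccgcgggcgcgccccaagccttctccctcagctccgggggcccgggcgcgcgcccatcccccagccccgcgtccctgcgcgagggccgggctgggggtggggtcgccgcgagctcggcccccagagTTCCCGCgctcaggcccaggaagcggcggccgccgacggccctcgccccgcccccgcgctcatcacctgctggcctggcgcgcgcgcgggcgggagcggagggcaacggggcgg
SEH1L: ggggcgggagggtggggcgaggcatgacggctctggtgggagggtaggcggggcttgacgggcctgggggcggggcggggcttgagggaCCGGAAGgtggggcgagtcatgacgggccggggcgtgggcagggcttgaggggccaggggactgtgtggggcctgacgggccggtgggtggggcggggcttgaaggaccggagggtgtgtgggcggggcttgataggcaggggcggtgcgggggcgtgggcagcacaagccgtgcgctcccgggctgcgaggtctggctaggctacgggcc

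The NUP88 window held 3 CCAAT matches and 1 CCGGAAG match, and the NUP35 window held 1 match to TTTGAA and 1 each to the CCAAT and CCGGAAG motifs. IPO4 had 1 CACGTG and 1 CCGGAAG, NUP210 had 1 GCGGGAA, and SEH1L had 1 CCGGAAG. None of the matches in these windows overlapped another. RefSeq windows were matched by symbol for 39 of the 43 members, and GLE1, KPNB1, NUP43 and RANBP1 had none. CCGGAAG stood in 15 of the 39 windows (38.5%), against 17.1% of the 14860 windows of genes tested and 10.3% of all 35116 windows. GCGGGAA stood in 8 (20.5%), against 9.43% of windows of genes tested and 6.55% of all windows. TTTGAA stood in 10 (25.6%), against 10.7% of windows of genes tested and 15.2% of all. CCAAT stood in 15 (38.5%), against 34.7% and 34.6% by the same measures, and CACGTG in 5 (12.8%), against 9.41% and 7.26%. In shDDX5 cells the median log2 fold change of members with and without each motif was -0.73 and -0.60 for CCGGAAG, -0.91 and -0.57 for GCGGGAA, -0.78 and -0.61 for TTTGAA, and -0.72 and -0.54 for CCAAT. For CACGTG it went the other way, at -0.51 with the motif and -0.67 without it. With RX-5902 the medians with and without the motif were -0.27 and -0.23 for CCGGAAG and -0.38 and -0.24 for TTTGAA. There the fall was smaller with the motif for GCGGGAA (-0.23 and -0.26), CCAAT (-0.25 and -0.26) and CACGTG (-0.19 and -0.26). These matches describe letters in the windows and nothing was measured at them.

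Total counts were 17603589 to 19674098 per library in the knockdown experiment and 20264250 to 20367575 in the compound experiment. Levels are given as CPM, read counts scaled by library size with TMM factors, and the word called marks a gene whose adjusted p (Benjamini-Hochberg, all genes tested) was under 0.05 in edgeR's quasi-likelihood test. DDX5 itself was at 159, 164 and 161 CPM in shDDX5 libraries, against 755, 718 and 730 CPM in shControl libraries (log2 fold change -2.19, SE 0.08, adjusted p = 3.44e-06 with edgeR). With RX-5902 it was higher by 0.31 (SE 0.04, adjusted p = 1.47e-08 with edgeR). Replicate 1 of shDDX5 stood apart. Its counts differed from those of replicates 2 and 3 by a chi-square per gene of 52.5 and 52.7, and every other pair of replicates lay between 1.76 and 6.62. The 10 listed myeloid genes summed to 13624 to 14996 CPM in shDDX5 and 4407 to 4762 CPM in shControl libraries. In the compound experiment they summed to 1669 to 1702 CPM in RX-5902 and 1656 to 1679 CPM in DMSO libraries. Among them CD68 had at most 7 counts in any library, and ITGAM averaged 6.37 CPM in DMSO cells. Markers of T and NK cells summed to 151 to 187 CPM in shDDX5 libraries and 105 to 113 CPM in shControl libraries, and among them NKG7 averaged 113 CPM in shDDX5 cells and 53.2 CPM in shControl cells. NCAM1, on the same list, averaged 51.6 CPM in shDDX5 cells and 54.9 CPM in shControl cells. The list summed to 180 to 188 CPM in RX-5902 libraries and 176 to 186 CPM in DMSO libraries. Most of that was NCAM1, at 159 CPM in RX-5902 cells and 164 CPM in DMSO cells. B cell markers summed to at most 2.99 CPM and erythroid and megakaryocytic ones to at most 0.625 CPM in any of the 12 libraries. Markers of epithelial and stromal cells summed to 11.9 to 13.1 CPM in shDDX5 libraries and 4.98 to 5.72 CPM in shControl libraries. They summed to 1.97 to 2.65 CPM in RX-5902 libraries and 1.16 to 1.32 CPM in DMSO libraries. CD3G, MS4A1, HBB, PF4 and COL3A1 had no read in all 12 libraries.

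In shDDX5 cells most of the 43 members were at a lower RNA level. The 43 members took 0.421, 0.514 and 0.509% of all counts in the shDDX5 libraries, against 0.793, 0.782 and 0.790% in the shControl libraries. Of the 43 members, 35 fell, 1 rose and 7 were not called. Among all 14463 genes tested, 56.7% were called, 28.3% lower and 28.4% higher. The median log2 fold change was -0.63 over the members and -0.000705 over all genes tested, and 11 members fell at least 2-fold. In 35 members all 3 shDDX5 libraries lay below all 3 shControl libraries, and in 1 they lay above. Over all genes tested these shares were 34% and 32.2%. Without shDDX5 replicate 1, 38 members were called lower and 2, TNPO3 and POM121, higher. The share of all genes tested that was called rose as well, to 35.7% lower and 35.7% higher. In bulk RNA, fewer cells of a kind and less RNA per cell cannot be told apart.

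**Figure D1:**
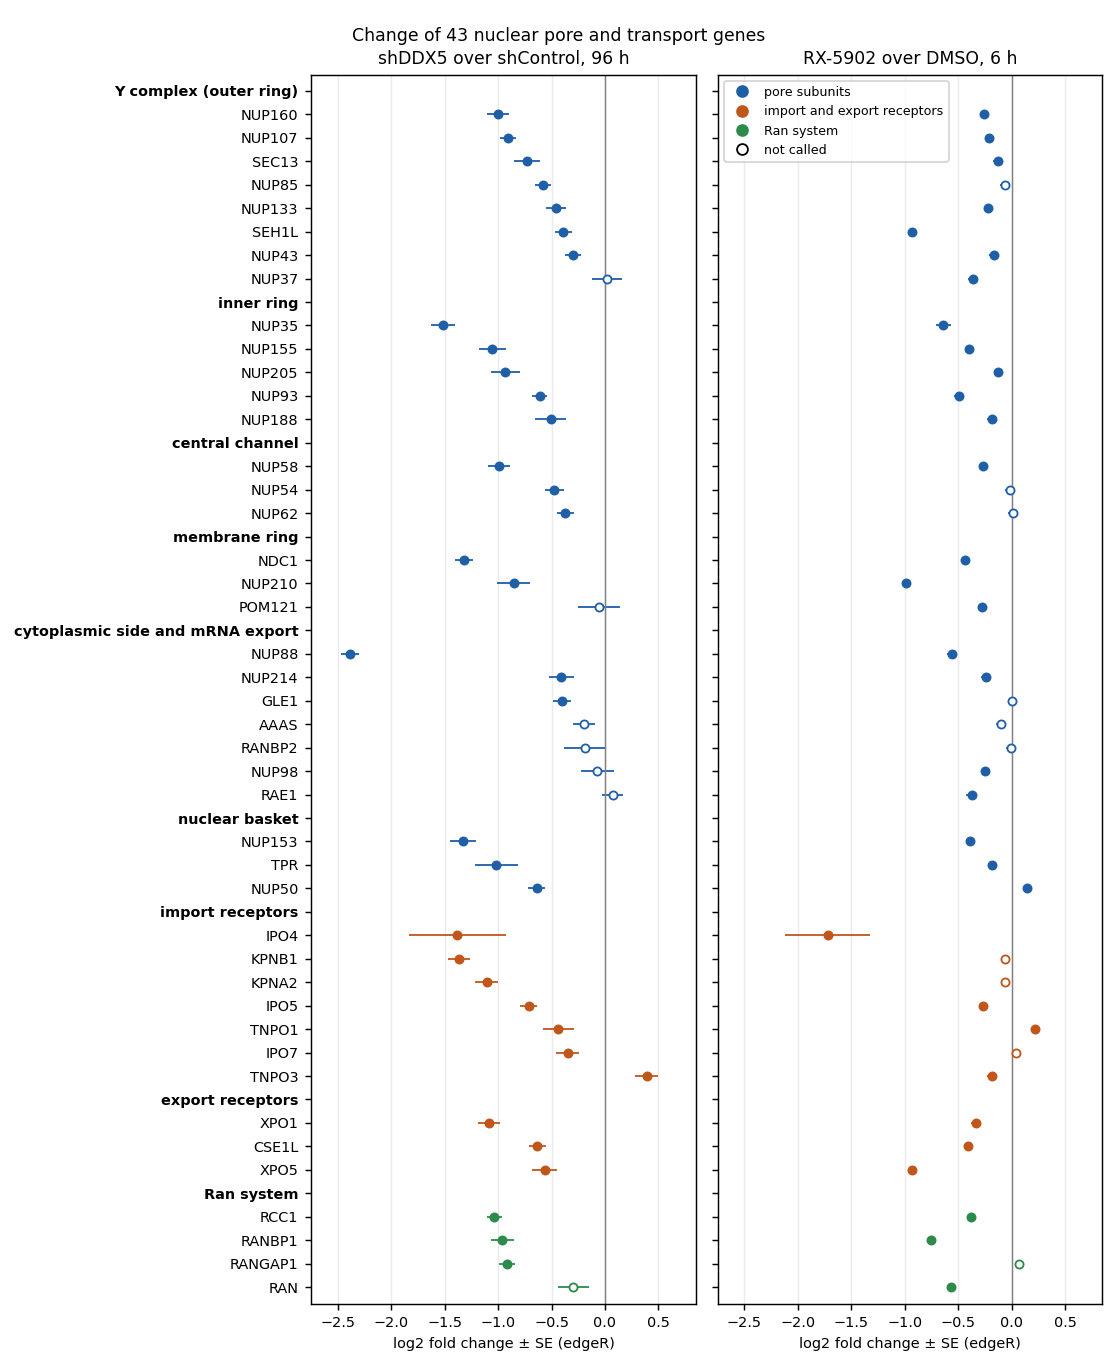
Log2 fold change with its standard error (edgeR, 3 libraries per group) of the 43 members, ordered by role, for shDDX5 over shControl at 96 hours (left) and RX-5902 over DMSO at 6 hours (right). Filled points were called and open points were not. In shDDX5 cells 35 members fell and 1 rose, and with RX-5902 31 fell and 2 rose.

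The largest fall was that of NUP88, a nucleoporin of the cytoplasmic face that binds NUP214 and NUP98. NUP88 (chr17:5359668-5420164, GRCh38, as are all gene positions given) had 13.1, 13.3 and 12.6 CPM in shDDX5 libraries, against 64.7, 70.9 and 68.8 CPM in shControl libraries. The groups were far apart, and the fall was 5.24-fold (log2 fold change -2.39, SE 0.09, adjusted p = 3.44e-06 with edgeR). Only 0.761% of the genes tested had a fold change as low or lower. The exons of NUP88 share 3786 bases, or 31.7% of their length, with RABEP1 on the opposite strand. RABEP1 averaged 21.2 CPM in shDDX5 cells and 29.8 CPM in shControl cells, and was not called (log2 fold change -0.49, SE 0.29, adjusted p = 0.187 with edgeR). The strand setting of the counting is not given in the sources used here, so reads of the 2 genes may be mixed. NUP88's promoter window is the one with 3 CCAAT matches.

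On the rest of the cytoplasmic side 2 of 6 members fell, near the 28.3% called lower over all genes tested. NUP214, which anchors the cytoplasmic filaments with NUP88, fell by 0.41 (SE 0.11, adjusted p = 0.0158 with edgeR). GLE1, which activates the helicase that releases mRNA from the pore, fell by 0.40 (SE 0.08, adjusted p = 0.00333 with edgeR). NUP214 lost its call without shControl replicate 2. When a trend of fold change with gene length was removed (length offset), NUP214, NUP54 and SEH1L lost their calls. NUP98, whose gene is a fusion partner in myeloid leukemia, had 164, 247 and 250 CPM in shDDX5 libraries, against 222, 233 and 240 CPM in shControl libraries. Its groups overlapped, with replicate 1 of shDDX5 lowest and replicates 2 and 3 highest of all 6 (log2 fold change -0.07, SE 0.16, adjusted p = 0.713 with edgeR). RANBP2 of the cytoplasmic filaments, the mRNA export factor RAE1 and AAAS (aladin) were not called, at log2 fold changes of -0.19, 0.07 and -0.20. The group as a whole had 3 of 7 members lower and a median of -0.20.

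The inner ring, the part of the scaffold closest to the channel, fell in all 5 members (median log2 fold change -0.93). NUP35, which binds the membrane and links NUP93 to NUP155, had 7.95, 6.34 and 6.79 CPM in shDDX5 libraries, against 20.8, 20.4 and 19.0 CPM in shControl libraries. The 2 groups did not overlap (log2 fold change -1.51, SE 0.11, adjusted p = 1.84e-05 with edgeR). NUP155, NUP205 and NUP93 fell by 1.05, 0.93 and 0.61 on the log2 scale. NUP188, the paralog of NUP205, fell by 0.51 (SE 0.15, adjusted p = 0.0175 with edgeR), and lost its call without shControl replicate 2 or 3.

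The Y complex, which forms the outer rings, fell in 7 of 8 members, with a median of -0.52. NUP107, one of its stem proteins, had 59.1, 62.4 and 61.0 CPM in shDDX5 libraries, against 118, 111 and 114 CPM in shControl libraries. Both groups had little spread and lay far apart (log2 fold change -0.91, SE 0.08, adjusted p = 3.2e-05 with edgeR). NUP160 fell by 1.00, SEC13, which also serves in vesicle coats, by 0.73, and NUP85 by 0.58. NUP133, SEH1L and NUP43 fell by 0.46, 0.39 and 0.30. NUP37 was not called, with 75.9, 54.2 and 52.1 CPM in shDDX5 libraries and 61.4, 59.9 and 58.7 CPM in shControl libraries. Here replicate 1 of shDDX5 was the highest of the 6 and replicates 2 and 3 were the lowest, and without replicate 1 NUP37 was called lower at a log2 fold change of -0.18.

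All 3 nucleoporins of the central channel fell. NUP58 had 96.6, 120 and 110 CPM in shDDX5 libraries, against 225, 217 and 210 CPM in shControl libraries (log2 fold change -0.99, SE 0.10, adjusted p = 8.19e-05 with edgeR). NUP54 and NUP62, its partners in the channel, fell by 0.47 and 0.37. Of the membrane nucleoporins, NDC1, which anchors the pore in the envelope, had 48.1, 46.2 and 48.4 CPM in shDDX5 libraries, against 127, 112 and 116 CPM in shControl libraries. Its groups were widely separated (log2 fold change -1.32, SE 0.08, adjusted p = 1.05e-05 with edgeR). NUP210 fell by 0.86 (SE 0.16, adjusted p = 0.00207 with edgeR). POM121 had 91.7, 161 and 159 CPM in shDDX5 libraries, against 138, 147 and 144 CPM in shControl libraries, and was not called. Without shDDX5 replicate 1 it was called higher, at 0.16. Near-identical copies of POM121 sum to 109 CPM over all libraries, 76.1% of the level of POM121 itself, so its value is uncertain.

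The nuclear basket, a set of filaments on the nuclear face, fell in all 3 members, with a median of -1.02. NUP153, which tethers the basket, had 73.3, 94.1 and 101 CPM in shDDX5 libraries, against 233, 225 and 216 CPM in shControl libraries (log2 fold change -1.33, SE 0.12, adjusted p = 5.6e-05 with edgeR). TPR, which forms the filaments, had 82.0, 148 and 146 CPM in shDDX5 libraries, against 257, 248 and 255 CPM in shControl libraries. Replicate 1 of shDDX5 was the lowest for TPR, and every shDDX5 library lay below every shControl library (log2 fold change -1.02, SE 0.20, adjusted p = 0.00313 with edgeR). NUP50, a mobile basket protein that assists import, had 91.3, 102 and 99.1 CPM in shDDX5 libraries, against 157, 149 and 150 CPM in shControl libraries, a fall of 0.64.

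Among the import receptors, 6 of 7 fell in shDDX5 cells, 1 rose, and the median was -0.72. KPNB1, importin beta, which carries most classical import, had 144, 178 and 174 CPM in shDDX5 libraries, against 433, 414 and 430 CPM in shControl libraries. The fall was 2.57-fold with no overlap (log2 fold change -1.36, SE 0.10, adjusted p = 2.06e-05 with edgeR). KPNA2, an importin alpha that links classical cargo to KPNB1, had 131, 104 and 106 CPM in shDDX5 libraries, against 238, 239 and 254 CPM in shControl libraries (log2 fold change -1.11, SE 0.11, adjusted p = 7.11e-05 with edgeR). IPO5 and IPO7, which import ribosomal proteins among other cargo, fell by 0.72 and 0.35. TNPO1, the receptor of hnRNP A1, fell by 0.44 (SE 0.14, adjusted p = 0.0307 with edgeR). IPO7 and TNPO1 lost their calls without shControl replicate 1, 2 or 3.

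TNPO3, which imports serine- and arginine-rich splicing factors, was the member that rose. It had 138, 169 and 178 CPM in shDDX5 libraries, against 124, 123 and 123 CPM in shControl libraries (log2 fold change 0.39, SE 0.11, adjusted p = 0.0138 with edgeR). The groups did not overlap, but the call was lost without shControl replicate 1, 2 or 3 (adjusted p = 0.0547, 0.0576 and 0.0582 with edgeR). IPO4, an importer of histones and ribosomal proteins, was nearly absent, with 2 to 22 counts per library. It had 0.568, 0.396 and 0.104 CPM in shDDX5 libraries, against 1.1, 0.739 and 0.937 CPM in shControl libraries (log2 fold change -1.38, SE 0.46, adjusted p = 0.0309 with edgeR). Of its exonic bases, 68.7% are shared with an annotated read-through gene on the same strand, so its low level cannot be taken as that of the gene, and its call was lost in DESeq2 and without any 1 of the libraries other than shDDX5 replicate 1.

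All 3 export receptors fell. XPO1, the receptor for leucine-rich export signals, had 132, 159 and 161 CPM in shDDX5 libraries, against 344, 309 and 306 CPM in shControl libraries (log2 fold change -1.08, SE 0.11, adjusted p = 7.05e-05 with edgeR). CSE1L, which returns importin alpha to the cytoplasm, fell by 0.63, and XPO5, which exports microRNA precursors, by 0.57. In the Ran system, RCC1, the exchange factor, had 82.2, 81.6 and 84.4 CPM in shDDX5 libraries, against 170, 170 and 168 CPM in shControl libraries. Replicates were tightly grouped, including replicate 1 of shDDX5 (log2 fold change -1.04, SE 0.07, adjusted p = 1.58e-05 with edgeR). RANBP1 fell by 0.96 and RANGAP1 by 0.92.

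RAN itself was the most abundant member per kilobase of exon. RAN had 914, 653 and 641 CPM in shDDX5 libraries, against 904, 896 and 907 CPM in shControl libraries. Replicate 1 of shDDX5 lay with the controls and the other two lay below them, and RAN was not called (log2 fold change -0.29, SE 0.14, adjusted p = 0.109 with edgeR). Without replicate 1 the value was -0.48 (adjusted p = 4.18e-11 with edgeR).

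**Figure D2:**
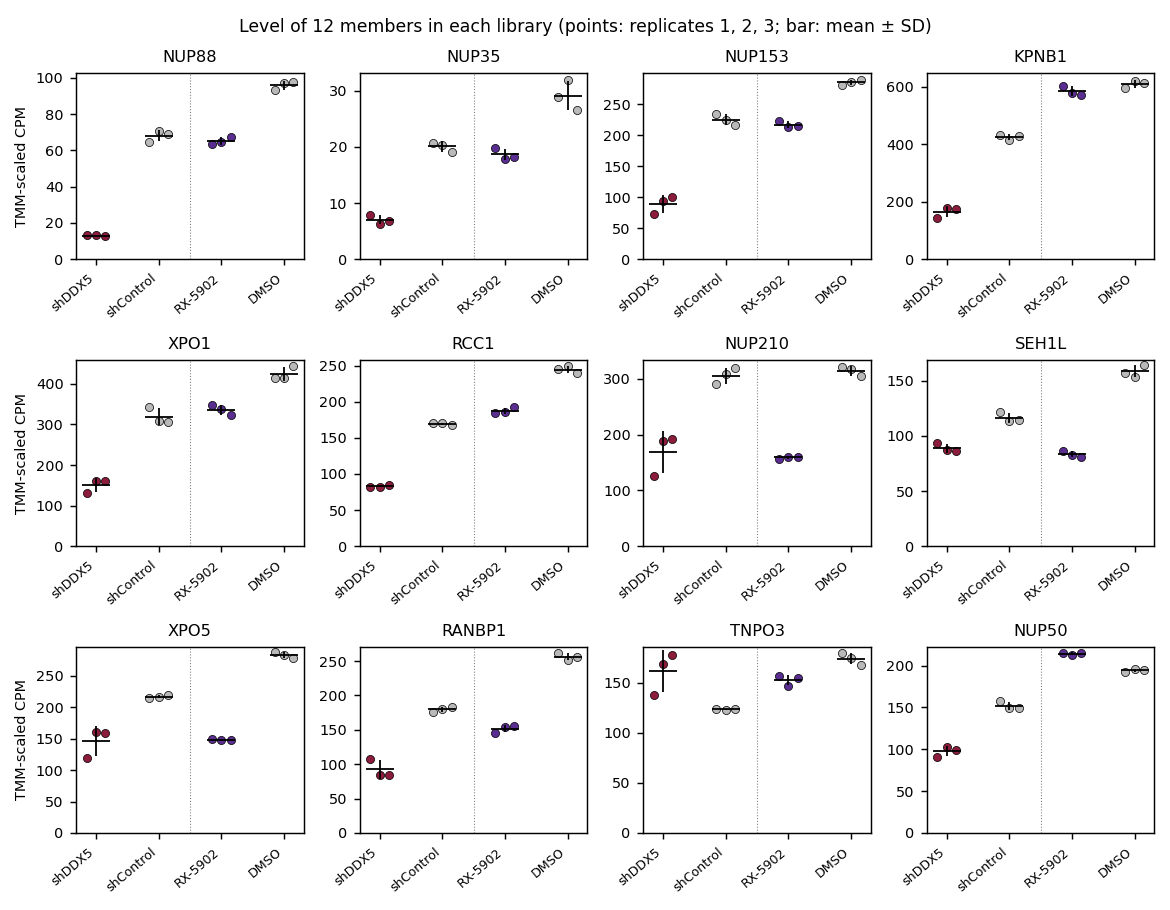
TMM-scaled CPM of 12 members in each of the 12 libraries (points are replicates 1 to 3, the horizontal bar is the mean and the vertical line the SD). NUP88 lay at 12.6 to 13.3 CPM in shDDX5 libraries and at 64.7 to 70.9 CPM in shControl libraries, and NUP210 lay at 157 to 161 CPM in RX-5902 libraries and at 305 to 322 CPM in DMSO libraries.

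The position of shDDX5 replicate 1 varied with gene length among the members. Its log2 level minus the mean of replicates 2 and 3 was -0.83 for TPR, -0.80 for RANBP2 and POM121, -0.60 for NUP210 and -0.59 for NUP98, and it was 0.51 for NUP37 and 0.50 for RAN. Over the 43 members this difference and the log of the exonic length had Pearson's r = -0.59 and Spearman's rho = -0.59, a description over genes of the same 3 libraries. With the length trend removed, 32 members were called lower and 1 higher, beside 29.5% and 30.8% of all genes tested, with a pore median of -0.43. Mitochondrially encoded genes took 10.3% of the counts in that library, and 5.19 to 8.09% in the other 11. The part of these differences in the members' changes was not tested beyond these values.

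**Figure D3:**
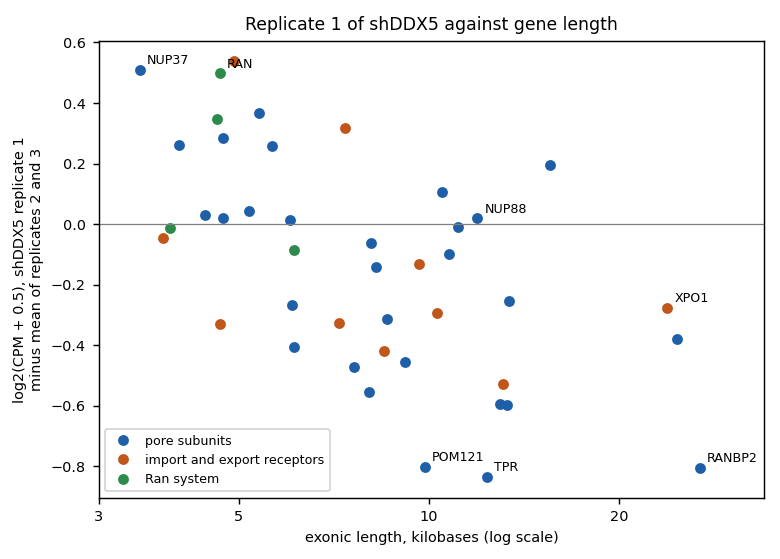
Log2 CPM (0.5 added) in shDDX5 replicate 1 minus the mean of replicates 2 and 3, against exonic length on a log scale, with 1 point per member. Long members such as TPR and RANBP2 were lower in replicate 1, short ones such as NUP37 and RAN were higher, and NUP88 lay near 0.

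With RX-5902 for 6 hours most of the 43 members were also at a lower RNA level. The members took 0.901, 0.891 and 0.874% of all counts in the RX-5902 libraries and 1.02% in each of the 3 DMSO libraries. Of the 43 members, 31 fell, 2 rose and 10 were not called. Among all 13941 genes tested, 64.1% were called, 31.9% lower and 32.2% higher. The median log2 fold change was -0.25 over the members and 0.01 over all genes tested, and 1 member, IPO4, fell at least 2-fold. In 32 members all RX-5902 libraries lay below all DMSO libraries, and in 2 they lay above. Over all genes tested these shares were 33.4% and 34%. Tested against a change of 1.2-fold in place of 0, 17 members were called lower and 0 higher, beside 18.8% and 18.5% of all genes tested. In 1 fit of all 12 libraries, 22 were lower and 1 higher, beside 19.8% and 24.5% of all genes. There NUP43, SEC13, NUP188, NUP205, POM121, NUP98, NUP214, TPR, TNPO1 and TNPO3 were not called. SEC13 was also not called without DMSO replicate 2.

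NUP210, a membrane glycoprotein of the pore, had 157, 161 and 160 CPM in RX-5902 libraries, against 322, 318 and 305 CPM in DMSO libraries. The fall was 1.98-fold with no overlap (log2 fold change -0.98, SE 0.04, adjusted p = 6.77e-21 with edgeR). SEH1L, a Y complex protein that also acts in amino acid sensing upstream of mTORC1, had 86.1, 83.1 and 80.5 CPM in RX-5902 libraries, against 158, 154 and 165 CPM in DMSO libraries (log2 fold change -0.93, SE 0.04, adjusted p = 3.32e-19 with edgeR). Both lay clear of the DMSO range in every library. NUP35 had 19.8, 17.9 and 18.2 CPM in RX-5902 libraries, against 28.8, 31.8 and 26.6 CPM in DMSO libraries (log2 fold change -0.64, SE 0.07, adjusted p = 1.08e-09 with edgeR). NUP88 had 63.6, 64.4 and 67.6 CPM in RX-5902 libraries, against 93.2, 96.9 and 97.6 CPM in DMSO libraries (log2 fold change -0.56, SE 0.04, adjusted p = 6.45e-13 with edgeR). RABEP1, its opposite-strand neighbour, also fell, by 0.43 (SE 0.05, adjusted p = 1.41e-08 with edgeR).

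The scaffold fell in 12 of 13 members with RX-5902, as 7 of 8 Y complex members and all 5 of the inner ring were called lower. NUP107, the Y complex stem protein, had 157, 156 and 147 CPM in RX-5902 libraries, against 174, 178 and 180 CPM in DMSO libraries, a fall of 0.21. The medians were -0.22 for the Y complex and -0.39 for the inner ring. NUP85 was not called, at -0.06. In the channel NUP58 fell by 0.27, while NUP54 and NUP62 were not called, at -0.02 and 0.01. The other membrane nucleoporins, NDC1 and POM121, fell by 0.43 and 0.27. On the cytoplasmic side RAE1, NUP98 and NUP214 fell by 0.37, 0.25 and 0.24 beside NUP88, and GLE1, AAAS and RANBP2 were not called. NUP98 had 252, 246 and 238 CPM in RX-5902 libraries, against 299, 292 and 281 CPM in DMSO libraries, with no overlap.

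The basket split. NUP153 fell by 0.39 and TPR by 0.18, with TPR at 364, 344 and 339 CPM in RX-5902 libraries, against 390, 398 and 399 CPM in DMSO libraries. NUP50 rose, with 215, 213 and 216 CPM in RX-5902 libraries, against 193, 196 and 194 CPM in DMSO libraries (log2 fold change 0.14, SE 0.04, adjusted p = 0.00148 with edgeR). Although small, this difference exceeded the spread in every library.

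Of the 7 import receptors, 3 fell with RX-5902, 1 rose and 3 were not called, with a median of -0.06. In a list of 7, 3 called lower lies near the 31.9% over all genes tested. All 3 export receptors fell, with a median of -0.41. KPNB1 had 604, 578 and 570 CPM in RX-5902 libraries, against 594, 621 and 613 CPM in DMSO libraries, and these groups overlapped (log2 fold change -0.06, SE 0.04, adjusted p = 0.152 with edgeR). KPNA2 and IPO7 were not called, at -0.06 and 0.05. IPO5 and TNPO3 fell by 0.26 and 0.19. TNPO1 rose, with 429, 422 and 404 CPM in RX-5902 libraries, against 351, 352 and 374 CPM in DMSO libraries (log2 fold change 0.22, SE 0.04, adjusted p = 8.38e-06 with edgeR). IPO4 had 0.338, 0.192 and 0.146 CPM in RX-5902 libraries, against 0.91, 0.809 and 0.551 CPM in DMSO libraries (log2 fold change -1.72, SE 0.39, adjusted p = 0.000294 with edgeR). The low counts and the shared exons limit this value too, but the call was kept in DESeq2 and without each single library.

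XPO5 had 150, 148 and 147 CPM in RX-5902 libraries, against 287, 283 and 278 CPM in DMSO libraries. The fall was 1.91-fold (log2 fold change -0.93, SE 0.04, adjusted p = 2.02e-20 with edgeR). XPO1 had 347, 337 and 324 CPM in RX-5902 libraries, against 414, 416 and 443 CPM in DMSO libraries (log2 fold change -0.34, SE 0.04, adjusted p = 4.49e-09 with edgeR). Neither export receptor overlapped its DMSO values, and CSE1L fell by 0.41. RANBP1 had 145, 155 and 155 CPM in RX-5902 libraries, against 261, 251 and 256 CPM in DMSO libraries (log2 fold change -0.76, SE 0.04, adjusted p = 1.37e-17 with edgeR). RAN had 812, 812 and 809 CPM in RX-5902 libraries, against 1250, 1195 and 1150 CPM in DMSO libraries (log2 fold change -0.56, SE 0.04, adjusted p = 1.21e-14 with edgeR). RCC1 fell by 0.38, with 185, 186 and 192 CPM in RX-5902 libraries, against 245, 249 and 239 CPM in DMSO libraries. RANGAP1 was not called and its groups overlapped, with 323, 331 and 342 CPM in RX-5902 libraries, against 333, 308 and 306 CPM in DMSO libraries.

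Set side by side, 25 members fell in both experiments, and 1698 of the 13233 genes tested in both did so (12.8%). A further 8 fell in shDDX5 cells and were not called with RX-5902, and 5 were not called in shDDX5 cells and fell with RX-5902. NUP50 and TNPO1 fell in shDDX5 cells and rose with RX-5902, and TNPO3 rose in shDDX5 cells and fell with RX-5902. RANBP2 and AAAS were called in neither. The changes of the 43 members in the 2 experiments had Pearson's r = 0.30 and Spearman's rho = 0.28, as a description. The same measures over the 13233 genes were 0.125 and 0.132. No library was shared between the experiments, but they differ in time as well as in agent.

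**Figure D4:**
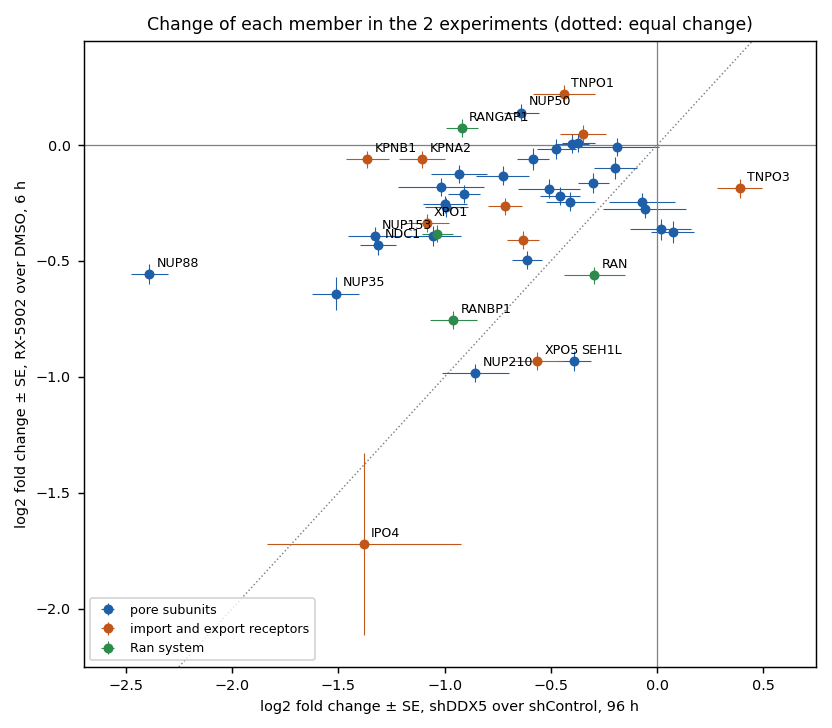
Log2 fold change with its standard error of each member in shDDX5 cells at 96 hours (x axis) against RX-5902 at 6 hours (y axis), with equal change dotted. The members lie above the dotted line in 33 of 43 cases, NUP88 and KPNB1 far above it, while SEH1L, XPO5, RAN and IPO4 lie below it.

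A test of the difference between the changes, over all 12 libraries, called 26 members lower in the knockdown than with RX-5902 and 4 higher. Over all 15386 genes in this test 52.7% were called, 28.6% lower and 24.1% higher. NUP88 differed most (difference of log2 fold changes -1.85, SE 0.09, adjusted p = 1.49e-09 with edgeR). KPNB1 differed by -1.32 (SE 0.10, adjusted p = 1.34e-07 with edgeR) and RANGAP1 by -1.01 (SE 0.09, adjusted p = 3.21e-07 with edgeR). NUP50 differed by -0.80 (SE 0.08, adjusted p = 1.83e-06 with edgeR) and NDC1 by -0.90 (SE 0.09, adjusted p = 1.87e-06 with edgeR). In all 5 the knockdown change was the lower. The 4 in the other direction were SEH1L, RAE1, TNPO3 and XPO5, at 0.52, 0.43, 0.56 and 0.35. XPO5 lost this call without shDDX5 replicate 2 or 3 or DMSO replicate 1, and CSE1L and NUP133 lost theirs without most single libraries. Without shDDX5 replicate 1, 30 were called lower and 8 higher, beside 32% and 28.4% of all genes in that fit.

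Pore subunits were then set beside the transport receptors. In shDDX5 cells the median log2 fold change was -0.58 over the 29 pore subunits (23 lower, 0 higher) and -0.67 over the 10 receptors (9 lower, 1 higher). The 4 Ran system genes had a median of -0.94, with 3 lower. With RX-5902 the medians were -0.24 for the pore (22 lower, 1 higher), -0.23 for the receptors (6 lower, 1 higher) and -0.47 for the Ran system (3 lower). The receptor value joined import receptors at -0.06 and export receptors at -0.41. It was -0.18 with a stricter filter, which left out the nearly absent IPO4. Summed over its 29 genes the pore stood at 2453 ± 291 CPM in shDDX5 cells and 3789 ± 14.6 CPM in shControl cells (SD, n = 3 each). The 10 receptors summed to 1495 ± 140 CPM in shDDX5 cells and 2432 ± 59.3 CPM in shControl cells. The ratios of these sums, 0.647 for the pore and 0.615 for the receptors, were not tested against each other. With RX-5902 the pore summed to 4108 ± 64.4 CPM, against 4924 ± 38.2 CPM with DMSO, and the receptors to 3122 ± 74.9 CPM, against 3500 ± 26.3 CPM with DMSO, ratios of 0.834 and 0.892.

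**Figure D5:**
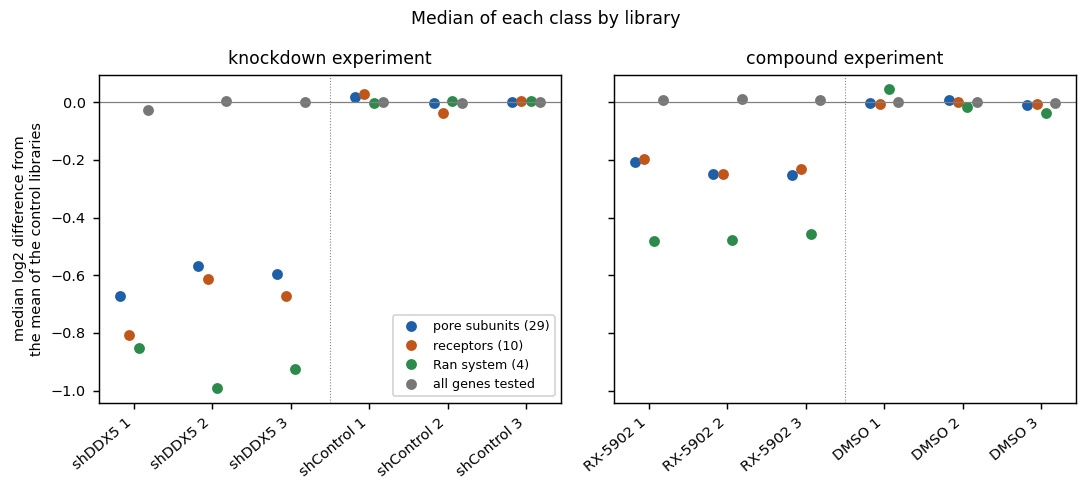
Median over the genes of each class of the log2 level minus the mean of the control libraries, for each library of the knockdown experiment (left) and the compound experiment (right), with all genes tested in grey. In each shDDX5 library the pore lay between -0.67 and -0.57 and the receptors between -0.81 and -0.61, and in each RX-5902 library both lay between -0.25 and -0.20.

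Per kilobase of exon, the median levels of the receptors and of the Ran genes stood above that of the pore subunits in all groups, although single receptors such as XPO1 and IPO4 stood below most pore subunits in shDDX5 and shControl cells. The median level of the pore subunits was 9.34 CPM per kilobase in shDDX5, 15.4 in shControl, 13.9 in RX-5902 and 21.9 in DMSO cells. That of the receptors was 16.6, 29.7, 40.8 and 45.5 CPM per kilobase in the same groups. RAN was the highest member in every group, at 158 CPM per kilobase in shDDX5 and 193 in shControl cells, and at 174 in RX-5902 and 257 in DMSO cells. IPO4 was the lowest receptor in each group, at 0.0458 to 0.188 CPM per kilobase. The exonic length counts every annotated exon, so it can exceed the length of the transcripts present.

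Reads can be shared where genes overlap. Of the 19 members with no exonic overlap with another gene, 14 fell and 1 rose in shDDX5 cells (median -0.64), and 12 fell and 1 rose with RX-5902. Of the 11 members with an overlap under 5%, 9 fell in shDDX5 cells (median -0.57), and 9 fell and 1 rose with RX-5902. Of the 13 members that share 5% or more of their exonic bases with another gene, 12 fell in shDDX5 cells (median -0.47) and 10 with RX-5902. The medians with RX-5902 were -0.26, -0.25 and -0.24 in this order. Over all genes tested 28.3% fell in shDDX5 cells and 31.9% with RX-5902. With RX-5902 some overlapping neighbours fell as their members did. POLR1C fell by 0.96 beside XPO5 (4.1% of exonic bases shared) and TRMT2A by 0.66 beside RANBP1 (8.5%). SNHG3 fell by 0.81 beside RCC1 (6.2%). Others rose, such as IL4I1 by 2.79 beside NUP62 (5.6%) and PCMT1 by 0.15 beside NUP43 (5.0%). The part of shared reads in these changes was not tested. Besides POM121, near-identical copies took few reads. The RGPD copies of RANBP2 summed to 0.487% of its level and the annotated RAN pseudogenes to 0.285% of that of RAN.

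Other genes of the pathway, from lists that hold none of the members, were counted in the same way. Their counts stand against the shares over all genes tested given above, 28.3% lower and 28.4% higher in shDDX5 cells and 31.9% lower and 32.2% higher with RX-5902, and in lists of this size several lie near those shares. Of 10 further pore genes, 4 fell and 1 rose in shDDX5 cells (median -0.20), and 7 fell and 1 rose with RX-5902 (median -0.30). The SUMO protease SENP1 fell by 0.99 and MAD1L1 rose by 0.59 in shDDX5 cells. AHCTF1 (ELYS), which seeds pores on chromatin, fell by 0.49 and SENP2 rose by 0.17 with RX-5902. Of 17 further transport receptors tested, 9 fell and 2 rose in shDDX5 cells (median -0.48) and 8 fell and 3 rose with RX-5902 (median -0.07). IPO9 fell by 1.61 and IPO11 by 1.25 in shDDX5 cells, where IPO13 rose by 0.86, and XPO4 fell by 0.81 and TNPO2 by 0.72 with RX-5902. Of 5 further Ran and export adaptors, 3 fell in shDDX5 cells and 4 fell and 1 rose with RX-5902. PHAX, the adaptor of snRNA export, fell by 1.37 in shDDX5 cells, and NUTF2, which imports RAN, fell by 0.50 with RX-5902. Of 14 genes of bulk mRNA export tested, 10 fell and 1, NXT2 by 0.99, rose in shDDX5 cells (median -0.43). With RX-5902, 9 of the 14 fell and 1, NXF1 by 0.24, rose (median -0.16). ALYREF fell by 0.77 in shDDX5 cells and by 0.52 with RX-5902.

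Proliferation genes moved with the members in the knockdown. All 24 listed proliferation genes fell in shDDX5 cells (median -1.99 on the log2 scale) and summed to 1095 CPM in shDDX5 cells, against 4087 CPM in shControl cells. With RX-5902, 9 fell and 11 rose, with a median of 0.05, beside 31.9% lower and 32.2% higher over all genes tested. Among those that fell were MCM2 by 0.81 and CDC6 by 0.72, and among those that rose were MKI67 by 0.92 and PLK1 by 0.64. The list summed to 7444 CPM in RX-5902 cells, against 6607 CPM in DMSO cells. MKI67 alone averaged 2016 CPM in RX-5902 cells, against 1064 CPM in DMSO cells, so the higher sum rests on that gene. The part of this list's change in that of the transport genes was not tested. Of 9 myeloid markers tested, 6 rose and 2, FLT3 and PTPRC, fell in shDDX5 cells. Over all genes tested 28.4% rose and 28.3% fell there. LYZ made up most of the sum of the myeloid markers, at 12909 CPM in shDDX5 cells, against 3411 CPM in shControl cells. With RX-5902, 6 of the 9 fell, among them MPO by 0.76 and LYZ by 0.54. The other 3 rose, among them PTPRC by 0.92 and ITGAM by 1.26. Over all genes tested 31.9% fell and 32.2% rose with RX-5902. The part of the myeloid markers was likewise not tested.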

How the data were processed

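The authors deposited raw counts of reads per gene, with no normalization, as a single table for each experiment and a column for each library. The same tables, per the file headers, hold each gene's exons and a Length column in bases, which was used here as exonic length. Tools named in the submitters' processing notes are, for trimming, Trim Galore 0.6.7; for alignment, STAR 2.7.9a (GRCh38.p13); then Picard 2.8.0; for counting, featureCounts of Subread 2.0.3; and for statistics, DESeq2 1.46.0 under R 4.4.2. The release of the annotation, the strand setting and the handling of reads that map to several genes are not given in the sources used here. The line of 1 gene was wrapped in each file and was rejoined.

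Symbols were matched by versioned identifier for 59984 genes and without the version for 1773, and 149 had no match. The members and the gene lists were chosen with earlier results of these data known, so no pattern in them is independent support. Each comparison was fitted to the 6 libraries of its experiment by edgeR 4.0.16 (R 4.3.3; default expression filter, TMM factors, quasi-likelihood F test, two-sided), with Benjamini-Hochberg adjustment over all genes tested. The difference of the changes was fitted on all 12 libraries. No p-value was computed over the members as a list. Each p-value weighs a difference between groups against the spread between libraries within groups, which edgeR estimates partly from other genes. The fits were tested first on simulated counts, with independent libraries and the same spread setting for every gene. Those counts held no outlying library and no length trend, so they cannot show how the fits handle shDDX5 replicate 1.

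Values in every library are given for members picked by size of change in each experiment, by smallest p in each role and in the test of the difference, and for RAN, KPNB1, XPO1, NUP98 and TPR. TNPO3, TNPO1, NUP37 and POM121 were added after their values were seen. Alternatives were DESeq2 1.42.0, RLE factors, no filter and a stricter filter (50 counts in at least 3 libraries), a test against a fold of 1.2, 1 fit of 12 libraries, an offset for gene length, the replicate block, and leaving out each library. Protein sequences were not analysed here.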

Additional observations from a re-analysis of the deposited data

How the results depend on the processing

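Counts of members called lower ran over 29 to 35 in the knockdown (30 to 38 with 1 library left out), 17 to 34 with RX-5902 (30 to 33) and 24 to 26 in the test of the difference (24 to 30). Over all genes, the shares called lower were 12.7 to 31.1% in the knockdown (22.9 to 35.7% with 1 library left out). They were 13.4 to 36.2% with RX-5902 (29.5 to 31%) and 12.3 to 32.5% in the test of the difference (24.9 to 32%). The lowest of these shares came from DESeq2, where genes with few counts were kept. Members called higher in the knockdown numbered 0 to 2 with 1 library left out and 0 against a fold of 1.2. With RX-5902 they numbered 1 in the fit of 12 libraries and 0 against a fold of 1.2, where 17 were lower. In the test of the difference they numbered 3 to 8 with 1 library left out. Over all genes, 22 to 35.7% were called higher in the knockdown with 1 library left out. In the test of the difference that share was 22.1 to 28.4%. The pore median in the knockdown was -0.43 with the length offset and -0.44 with the length offset and replicate block. With RX-5902 it was -0.21 in the fit of 12 libraries and -0.30 with the length offset, with or without the block. The receptor median with RX-5902 was -0.18 with the stricter filter, which left out IPO4, -0.19 in the fit of 12 libraries and -0.26 to -0.21 with 1 library left out. Some members that were not called changed sign. In the knockdown, with 1 library left out, NUP37 ran over -0.18 to 0.12, POM121 -0.19 to 0.16, NUP98 -0.17 to 0.10, RANBP2 -0.33 to 0.033 and RAE1 -0.020 to 0.14. With the length offset NUP37, POM121, NUP98 and RANBP2 were at -0.025, 0.075, 0.10 and 0.083, and with the replicate block added at -0.037, 0.055, 0.098 and 0.076. With RX-5902, leaving out 1 library gave -0.021 to 0.029 for NUP62, -0.043 to 0.024 for RANBP2 and -0.015 to 0.015 for GLE1. GLE1 was at -0.00133 with RLE factors, -0.00967 in DESeq2, -0.0134 without a filter, and -0.0519 with the length offset, with or without the block. NUP62 was at -0.00581 in DESeq2 and -0.00948 without a filter, RANBP2 at 0.00123 with the stricter filter and 0.0277 in the fit of 12 libraries, and NUP54 at 0.0191 in that fit. In the test of the difference RANBP2 ran over -0.32 to 0.033 and IPO4 over -0.18 to 0.80 with 1 library left out. Except for the genes left out by the stricter filter, the cause was not tested.

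Libraries with the same replicate number did not deviate together (correlations -0.0741 to 0.0345 in the knockdown and -0.041 to 0.016 in the compound experiment), so the numbers were not taken to pair them. With the replicate block 34 members were lower and 1 higher in the knockdown, 31 and 2 with RX-5902, and 24 and 4 in the test of the difference, and NUP37 was at -0.00332. Over all genes the block called 7592 in the knockdown, against 8204 without it, and 8696 with RX-5902, against 8943. With 3 libraries per group, counts near the floor such as those of IPO4 limit what can be said of that gene.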

Other observations

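The nuclear lamina and envelope, to which the pore is anchored, was listed beside the members. Of 14 such genes tested, 8 fell and 2 rose in shDDX5 cells (median log2 fold change -0.61), and 4 fell and 5 rose with RX-5902 (median 0.02). Over all genes tested 28.3% fell and 28.4% rose in shDDX5 cells, and 31.9% fell and 32.2% rose with RX-5902, so the list's counts with RX-5902 lie near those over all genes. LMNB1, the B-type lamin, fell by 0.84 in shDDX5 cells (SE 0.08) and by 0.22 with RX-5902 (SE 0.04). LBR, the lamin B receptor, fell by 0.95 in shDDX5 cells and rose by 0.39 with RX-5902, and SUN2, which links the envelope to the cytoskeleton, fell by 0.67 in shDDX5 cells and rose by 0.89 with RX-5902. LMNA, the A-type lamin, rose by 0.44 in shDDX5 cells and by 0.69 with RX-5902. In the test of the difference, 10 of the 14 were lower in the knockdown and 1 was higher. Over all genes in that test 28.6% were lower and 24.1% higher. The genes named were called in edgeR at an adjusted p under 0.05 in both experiments.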
